A study of Mus musculus with 186 samples.

Results

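The voltage-gated sodium channel subunits described here are 7 genes, Scn1a, Scn2a, Scn3a, Scn8a, Scn2b, Scn3b and Scn4b, out of 28338 gene symbols in the deposited table. They were taken by name, and all 7 were found and passed the low-count filter in every comparison. Bulk RNA sequencing covered 96 brain libraries of mice aged 4 weeks and 90 of mice aged 12 weeks. The mice differed in Akap11, a gene whose product is an A-kinase anchoring protein that holds protein kinase A at particular places in the cell. Mice with both copies are called WT, Akap11 +/- mice HET and Akap11 -/- mice KO, and the labels name no other allele, driver or treatment in any group. At each age the regions were the striatum (STR), the hippocampus (HP), the thalamus (TH), the substantia nigra (SN) and 2 areas of cortex, prefrontal (PFC) and somatosensory (SSC). This gave 36 groups, of which 30 held 5 libraries and 6 held 6. The labels do not give the kind of mutation, the sex or the pooling of animals, and do not say that libraries of a group came from separate animals, so p-values measure the spread between these libraries, which may be technical.

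Voltage-gated sodium channels open when the membrane depolarises and carry the rising phase of the action potential. One large alpha subunit forms the pore, and smaller beta subunits, single-span membrane proteins with an immunoglobulin-like domain, change its gating and its placement. In the brain the channels are packed at the axon initial segment and, in myelinated axons, at the nodes of Ranvier, where ankyrin-G, spectrin and neurofascin hold them. Protein kinase A phosphorylates brain alpha subunits and reduces their current.

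The alpha genes Scn1a, Scn2a and Scn3a form a cluster on chromosome 2 in GRCm38, by GENCODE M21. Scn3a (ENSMUSG00000057182) spans chr2:65457118-65567627 on the minus strand. Scn2a (ENSMUSG00000075318) spans chr2:65620771-65767447 on the plus strand, and Scn1a (ENSMUSG00000064329) spans chr2:66270778-66440840 on the minus strand. Scn8a (ENSMUSG00000023033) lies alone at chr15:100869858-101045938 on the plus strand. All 3 beta genes are on the plus strand of chromosome 9, Scn3b (ENSMUSG00000049281) at chr9:40269217-40291618, Scn2b (ENSMUSG00000070304) at chr9:45117782-45130070 and Scn4b (ENSMUSG00000046480) at chr9:45138395-45154152. The annotated genes that overlap a member lie on the opposite strand and share 0 exonic bases with it.

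Scn2b and Scn4b are neighbours, with 8324 bases between the end of the first and the start of the second, and they are shown side by side because the sizes of their regional ranges differ: across WT groups Scn4b varied 135-fold and Scn2b 2.19-fold. The 250 bases before the RefSeq start of each gene (GRCm38.p6, plus strand, 5′ to 3′, every CG dinucleotide in capitals) are, for Scn2b at chr9:45117626-45117875 and for Scn4b at chr9:45138374-45138623:
Scn2b: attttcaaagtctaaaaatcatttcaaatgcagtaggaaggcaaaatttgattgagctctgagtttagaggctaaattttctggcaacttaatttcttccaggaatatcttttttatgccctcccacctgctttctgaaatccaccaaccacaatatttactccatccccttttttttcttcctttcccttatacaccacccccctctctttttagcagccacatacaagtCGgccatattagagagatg
Scn4b: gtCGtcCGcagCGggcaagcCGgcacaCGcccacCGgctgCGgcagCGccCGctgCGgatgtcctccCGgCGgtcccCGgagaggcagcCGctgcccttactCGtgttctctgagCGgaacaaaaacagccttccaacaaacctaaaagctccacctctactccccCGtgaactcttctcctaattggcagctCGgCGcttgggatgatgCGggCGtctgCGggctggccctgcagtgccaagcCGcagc
The Scn2b window is poor in CG, with 1 CG dinucleotide and 38.4% G or C. The Scn4b window holds 23 CG dinucleotides and 66.0% G or C, against a median of 6 and 52.4% over all 32851 windows of the same length in the RefSeq table. GENCODE M21 places both starts inside these windows, upstream of the RefSeq starts. The motifs searched, on both strands, were TGACG, the core of a cAMP response element, then the GC box GGGCGG, then the TATA box TATAAA and finally the E-box CACGTG. None was found in either window, while 17.8%, 32.7%, 12.4% and 6.02% of all windows held them in that order. Of the 5 members with an entry in the table (Scn1a, Scn2a, Scn8a, Scn2b and Scn4b), only a second Scn2a start had a match, TATAAA at position -84. A match describes letters and not a working site.

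The deposited estimated counts summed to between 20.8 and 73.3 M per library (M, mega), with a mean of 46.1 ± 9.60 M (SD over all libraries). Akap11 itself was lower in KO than in WT libraries by 3.65 to 4.30 on the log2 scale in the 12 groups of region and age, and in each of them every KO library lay below every WT library. One library labelled WT, SN 92 at 4 weeks, had 46.7 counts per M (CPM) of Akap11 where the other WT libraries of its group had 195 to 243. It lay below every HET library of that group (96.7 to 140 CPM) and above every KO library (13.5 to 15.9), so it is called the library labelled WT 92. Defining markers of the labelled region were present, but 14 libraries stood apart by their marker scores, where a score is the mean log2(CPM + 1) of a marker list. At 4 weeks, 3 KO striatal libraries (51, 161 and 163) and 1 WT library (92) had cortical and hippocampal excitatory neuron scores of 4.87 to 5.77 (all other striatal libraries of both ages at most 2.99), 3 WT thalamic libraries were low for thalamic markers, and 4 SN libraries (2 WT, 2 KO) were low for dopamine neuron markers. In SSC, 3 HET libraries had striatal projection neuron scores of 6.51 to 7.49, against a median of 4.62 at 4 and 4.44 at 12 weeks. In a subset of 16 libraries, all at 4 weeks, far fewer values were whole numbers than in the others, for a reason not given in the sources used here. Levels include these libraries, and each member test that gained or lost a call without the 14 is given both ways.

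Among the alpha subunits, Scn1a was high in the SSC, TH and SN of WT mice and low in the PFC, HP and STR. Scn1a encodes a pore subunit best known from fast-spiking inhibitory neurons. At 4 weeks its mean level was 419 ± 53.8 CPM in SSC, 380 ± 93.8 in TH, 312 ± 147 in SN, 115 ± 15.4 in PFC, 109 ± 24.98 in HP and 107 ± 9.36 in STR (SD; n = 5 in the cortices and STR, 6 in HP, TH and SN). At 12 weeks it was 402 ± 38.8 CPM in SSC, 381 ± 51.1 in TH, 310 ± 26.2 in SN, 111 ± 19.1 in STR, 94.6 ± 19.1 in PFC and 90.1 ± 11.4 in HP (SD, n = 5 each, as for every 12-week group). At 12 weeks every library of the first 3 regions lay above every library of the last 3, and neighbours within each set overlapped. At 4 weeks all neighbours in the order overlapped, as the SN library labelled WT 92 was low.

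Scn2a was highest in PFC and lowest in TH and SN. Its product is the main pore subunit of immature axons and remains prominent in excitatory neurons. At 4 weeks Scn2a stood at 492 ± 89.2 CPM in PFC, 432 ± 26.6 in STR, 410 ± 45.0 in SSC, 296 ± 39.6 in HP, 155 ± 58.1 in TH and 132 ± 53.2 in SN. At 12 weeks it stood at 425 ± 62.8 CPM in PFC, 381 ± 40.5 in STR, 325 ± 29.9 in SSC, 284 ± 26.6 in HP, 157 ± 13.3 in SN and 128 ± 16.1 in TH. The 12-week SN and TH libraries all lay below those of the other 4 regions, and other neighbours in the 12-week order overlapped.

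Scn3a, the alpha subunit best known from the embryonic and newborn brain, had a single high region. At 4 weeks it reached 125 ± 8.98 CPM in STR, against 57.7 ± 6.40 in HP, 50.8 ± 1.58 in PFC, 32.0 ± 15.7 in SN, 31.5 ± 2.55 in SSC and 23.5 ± 14.6 in TH. At 12 weeks the values were 115 ± 11.2 CPM in STR, 57.5 ± 3.84 in SN, 57.3 ± 7.04 in HP, 48.4 ± 5.23 in PFC, 23.0 ± 0.783 in SSC and 17.5 ± 3.36 in TH. STR lay above all other regions at both ages, and the 12-week SN, HP and PFC libraries lay above those of SSC and TH.

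Scn8a, the pore subunit of mature initial segments and nodes, was the most even of the alpha genes. It was highest in SSC, at 630 ± 95.5 CPM at 4 weeks, followed by 437 ± 49.8 in PFC, 431 ± 61.1 in TH, 410 ± 35.8 in STR, 409 ± 45.3 in HP and 296 ± 86.3 in SN. At 12 weeks it was 594 ± 69.2 CPM in SSC, 455 ± 28.6 in TH, 444 ± 62.1 in HP, 363 ± 24.8 in PFC, 339 ± 55.7 in STR and 272 ± 38.7 in SN. Every SSC library lay above every library of the next region in the order at both ages, and at 12 weeks 1 HP library (WT 2) reached into the SSC range. All other neighbours overlapped.

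The beta subunits included both the widest and the narrowest range of the 7 genes. Scn4b, whose product is linked to the alpha subunit by a disulfide bond and carries a tail that can act as an open-channel blocker, was concentrated in STR. The 5 WT striatal libraries at 4 weeks averaged 4288 ± 991 CPM, followed by 363 ± 132 in TH, 328 ± 80.9 in SN, 239 ± 27.8 in SSC, 52.0 ± 5.96 in HP and 34.6 ± 11.1 in PFC. At 12 weeks Scn4b averaged 3543 ± 533 CPM in STR, 352 ± 48.5 in TH, 334 ± 22.5 in SSC, 253 ± 47.6 in SN, 66.7 ± 22.5 in HP and 31.8 ± 4.78 in PFC. No striatal library overlapped any other region. TH, SSC and SN overlapped one another as neighbours and lay above HP and PFC, which were separate at 12 weeks only.

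Scn2b, the other disulfide-linked subunit and the promoter neighbour printed above, was also highest in STR but by far less. At 4 weeks it measured 647 ± 104 CPM in STR, 490 ± 66.5 in SSC, 483 ± 34.1 in TH, 429 ± 74.2 in PFC, 407 ± 39.5 in SN and 369 ± 34.7 in HP, and all neighbours overlapped. At 12 weeks it measured 535 ± 72.6 CPM in STR, 398 ± 15.7 in TH, 380 ± 21.5 in SSC, 316 ± 17.4 in PFC, 315 ± 23.7 in HP and 296 ± 21.4 in SN. The 12-week order had 3 tiers that did not overlap: STR, then TH with SSC, then PFC, HP and SN.

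Scn3b, a subunit that associates with the pore without a covalent bond, peaked in HP. At 4 weeks it averaged 347 ± 76.7 CPM in HP, 219 ± 21.2 in STR, 163 ± 28.9 in PFC, 93.4 ± 46.4 in SN, 56.1 ± 73.4 in TH and 55.8 ± 3.98 in SSC. At 12 weeks it averaged 431 ± 50.4 CPM in HP, 213 ± 17.3 in STR, 181 ± 11.3 in PFC, 172 ± 12.1 in SN, 45.7 ± 5.79 in SSC and 37.3 ± 18.5 in TH. HP and STR were each separate from the next region at 12 weeks, PFC overlapped SN, and SSC overlapped TH. The large spread in TH at 4 weeks came from WT library 913, at 200 CPM on the scale of that group where the other 5 libraries had 4.41 to 41.3. That library also had a cortical and hippocampal excitatory neuron score of 5.56.

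**Figure D1:**
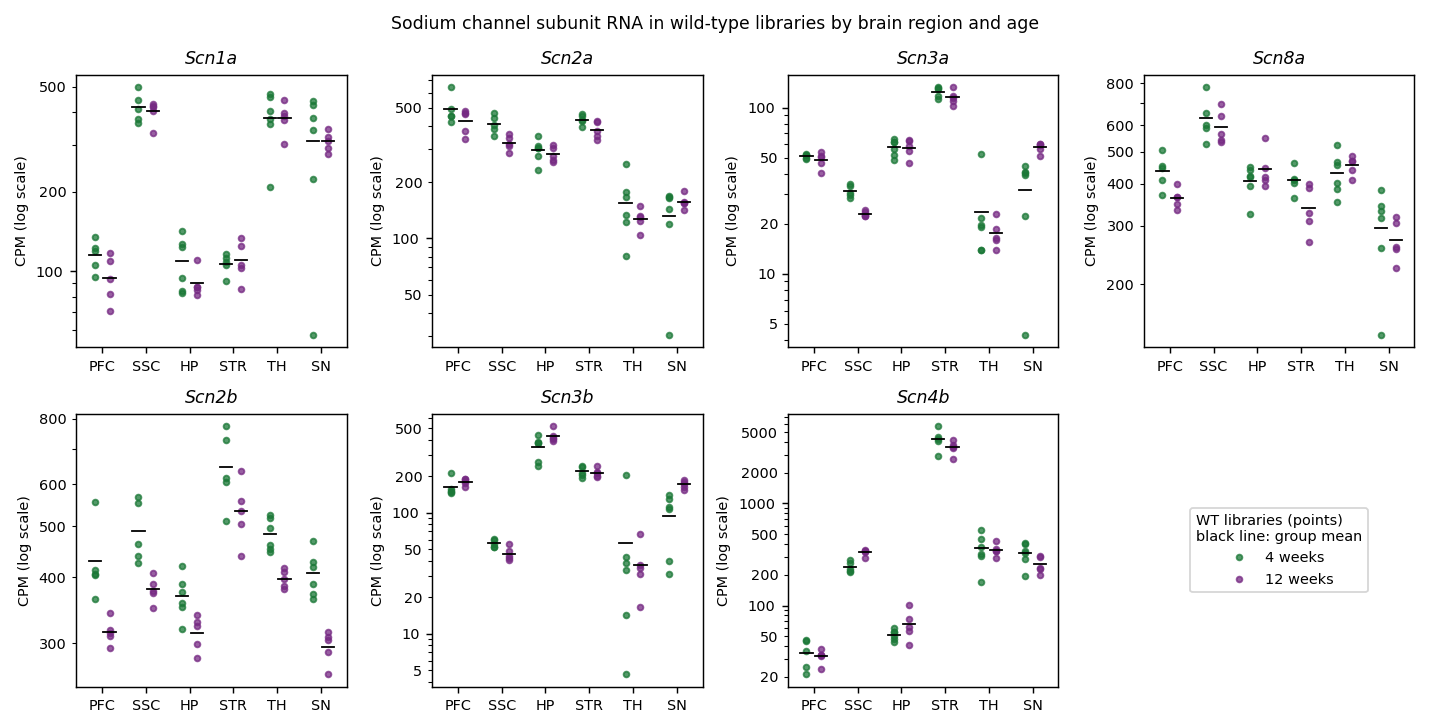
Level of each subunit in CPM (log axis, a separate scale per panel) in the WT libraries of 6 brain regions, with 1 point per library, green for 4 weeks and purple for 12 weeks, and a black line at the group mean. Scn4b and Scn3a are highest in STR, Scn3b in HP at 12 weeks, and Scn1a is high in SSC, TH and SN, where 1 low SN point at 4 weeks is the library labelled WT 92.

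Tested in WT as one region against the mean of the other 5, members were called (adjusted p under 0.05) in 65 of 84 tests, 35 higher and 30 lower. Region differences were also common among all genes, so these counts are read against the share of all tested genes called. At 4 weeks 3 of 7 members were called in PFC (43.0% of all genes), 4 in SSC (38.4%), 4 in HP (36.4%), 6 in STR (52.9%), 5 in TH (48.1%) and 6 in SN (59.0%). At 12 weeks 5 of 7 were called in PFC (57.0%), 6 in SSC (56.4%), 6 in HP (54.4%), 7 in STR (67.3%), 7 in TH (66.9%) and 6 in SN (67.8%). The count in PFC at 4 weeks was at its background, and whether any other count exceeded its share was not tested. Scn4b was higher in STR by 4.98 ± 0.15 on the log2 scale at 4 weeks (± SE, adjusted p = 1.19e-22) and by 4.63 ± 0.10 at 12 weeks (adjusted p = 2.0e-25), and it fell below the other regions in PFC (-3.40 and -3.55 at 4 and 12 weeks) and HP (-2.70 and -2.26). Scn3b was higher in HP (1.77 and 2.07) and lower in TH (-1.35 and -2.17) and SSC (-1.37 and -1.80). Without WT 913 the TH value of Scn3b at 4 weeks was -2.48 (adjusted p = 5.33e-07). Scn3a was higher in STR (1.78 and 1.68) and lower in TH (-1.12 and -1.61). Scn1a was the only member called in all 12 tests, higher in SSC (1.29 and 1.32), TH (1.10 and 1.21) and SN (0.73 and 0.86) and lower in PFC (-0.97 and -1.20), HP (-1.07 and -1.28) and STR (-1.07 and -0.91). Scn2a was higher in PFC (0.94 and 0.85), STR (0.75 and 0.68) and SSC (0.65 and 0.41) and lower in TH (-1.05 and -1.23) and SN (-1.36 and -0.87). Scn8a moved by at most 0.70 either way, higher in SSC (0.70 at each age) and lower in SN (-0.66 and -0.67). Scn2b was higher in STR (0.61 and 0.67) and lower in HP (-0.41 and -0.26) and SN (-0.26 and -0.37). Of the 65 calls, 59 were made under every alternative run, and the others were Scn3a in SN, Scn3b in STR and Scn4b in SN at 4 weeks, and Scn2b in TH and Scn8a in HP and TH at 12 weeks. Scn3a in SN went from -0.63 to -0.38 without the library labelled WT 92 (adjusted p = 0.0712) and to -0.19 without all that stood apart (adjusted p = 0.0273), and Scn8a in HP went from 0.19 to 0.0995 without WT 2 (adjusted p = 0.323). Without the libraries that stood apart, 4 tests at 4 weeks gained a call: Scn3a in HP (0.41, adjusted p = 3.37e-06), PFC (0.19, adjusted p = 0.0135) and SSC (-0.61, adjusted p = 4.49e-08), and Scn3b in PFC (0.58, adjusted p = 0.00135). With all libraries the same tests gave 0.40 (adjusted p = 0.188), 0.19 (adjusted p = 0.584), -0.61 (adjusted p = 0.0802) and 0.47 (adjusted p = 0.344). Tissue samples hold mixed cells, so a difference in the number of expressing cells and a difference in RNA per cell cannot be told apart here or below.

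Levels of different genes were compared per kilobase, dividing CPM by the length of the longest annotated coding transcript, which is 4.15 to 4.98 kb for the beta genes and 8.39 to 11.4 kb for the alpha genes. The choice of length matters most for Scn8a, whose 15 coding transcripts have a median of 2110 bases, against medians of 7031 to 8550 for the other alpha genes. Shares with another length were not computed, so the rank of Scn8a among the alpha genes rests on this choice. Per kb of the longest transcript, the make-up of the alpha pool changed with the region. Scn1a made up 43.7% ± 8.36 and 44.7% ± 3.50 of the summed alpha RNA per kb in WT TH at 4 weeks (SD, n = 6) and 12 weeks (n = 5), and 43.3% and 43.8% in SN, but 11.6% to 14.9% in PFC, HP and STR. Scn2a led in PFC (48.8% and 49.6% at 4 and 12 weeks) and STR (44.0% and 43.8%) and made up 14.2% to 20.9% in TH and SN. In HP, Scn8a (40.6% and 44.4%) and Scn2a (37.6% and 36.4%) together held most of the pool. Scn3a reached 11.9% and 12.4% in STR and stayed at 1.7% to 7.2% elsewhere. The SSC pool was split more evenly, with Scn1a at 32.4% and 34.6%, Scn2a at 29.8% and 26.2%, and Scn8a at 35.7% and 37.4%.

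The 3 beta genes made a different picture. In STR Scn4b made up 81.5% of their summed RNA per kb at 4 weeks and 80.9% at 12 weeks. The sum itself was 1053 CPM per kb at 4 weeks and 877 at 12 weeks in STR, against 118 to 190 in the other regions. Scn2b led in PFC (66.5% and 57.6%), SSC (63.0% and 51.1%) and TH (54.8% and 51.8%), while Scn3b led in HP (47.8% and 56.2%).

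**Figure D2:**
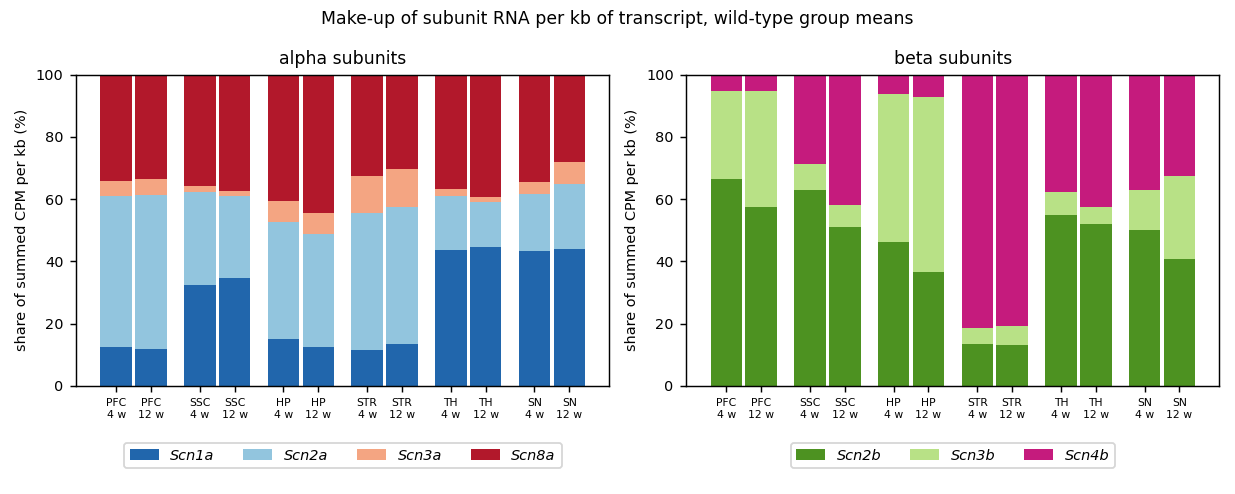
Share of each gene in the summed CPM per kb of the 4 alpha genes (left) and the 3 beta genes (right), as percent, for the WT group means of 6 regions at 4 and 12 weeks. Scn4b takes over 80% of the beta bar in STR, and Scn1a takes over 40% of the alpha bar in TH and SN and under 15% in PFC, HP and STR.

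Across the 12 WT groups of region and age, the mean levels of Scn3a and Scn3b rose and fell together (Pearson r = 0.83 of mean log2(CPM + 1)), as did Scn2b and Scn4b (0.73), whereas Scn1a ran against Scn3b (-0.88) and Scn3a (-0.77). The groups share libraries' region and age effects, so these values and the next are descriptions. Among 10099 genes with a mean of at least 10 CPM, the patterns most like each member were those of Zfyve9 (0.973), Scrt1 (0.972) and Krt222 (0.970) for Scn1a. For Scn2a they were Ipo11 (0.987), Sh3rf3 (0.987) and Csmd1 (0.986). For Scn3a they were Fam136a (0.970), 1810026J23Rik (0.966) and Klhl7 (0.960). For Scn8a they were Brinp1 (0.955), Gramd1b (0.941) and 9330102E08Rik (0.933). For Scn2b they were Pigo (0.959), Mkrn1 (0.947) and Zfp574 (0.940). For Scn3b they were Slc7a14 (0.978), Apaf1 (0.945) and Supt20 (0.941). For Scn4b they were Sun2 (0.989), Lrrc61 (0.954) and Mppe1 (0.946).

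Of 84 tests of a member in KO against WT, 1 was called: Scn4b fell in the 12-week striatum. The WT libraries 1 to 5 measured 3578, 3747, 2742, 4128 and 3490 CPM, the HET libraries 2891, 3141, 3421, 3748 and 3902, and the KO libraries 2785, 2153, 2849, 2655 and 2384. The KO values were the lowest as a group, but WT 3 lay below KO 1 and KO 3, so the groups overlapped, while HET libraries spread over the WT range. WT averaged 3537 ± 507 CPM, HET 3421 ± 418 and KO 2565 ± 291 (SD, n = 5 each), and KO stood at 72.5% of WT. The log2 change was -0.46 ± 0.11 (SE, adjusted p = 0.0203). Among all genes 4.42% were called in that comparison, 3.35% in the striatum at 4 weeks and 0.018% in the other 10 comparisons pooled. Per kb, Scn4b made up 75.1% ± 2.28 of the beta RNA in KO striatum at 12 weeks and 80.9% in WT, with Scn2b at 18.1% and 13.1%.

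Marker scores and marker calls in the same libraries are given as a description. The striatal projection neuron score was lowest in KO 2 (9.91) and WT 3 (9.93), the libraries with the lowest Scn4b of their groups, and 2 of the 10 listed striatal projection markers were called lower in KO (median log2 change of the list -0.16). Of the 7 pan-neuronal markers 1 was called lower, of the 6 tested cortical and hippocampal markers 1 was called higher, of the 9 fast-spiking interneuron markers 1 was called higher, and no listed oligodendrocyte, astrocyte, microglial or endothelial marker was called. The immature neuron score was 4.53 in KO 2 and 4.44 in KO 5, the KO libraries with the lowest Scn4b, against 3.63 to 4.09 in the other KO libraries. WT 3 had the highest WT score, 4.82, which was also above every KO library. None of the 7 listed immature neuron markers was called (median -0.10). The part of cell make-up in the Scn4b change was not tested. Leaving out KO 2, KO 5 or WT 4 took the adjusted p to 0.0505, 0.0629 and 0.0546, and leaving out any single library kept the change between -0.54 and -0.40.

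At 4 weeks the striatal KO mean of Scn4b was also lower, but the libraries disagreed. WT libraries 42, 92, 142, 913 and 914 had 3960, 4059, 3717, 2812 and 5290 CPM, and the HET libraries had 3173 to 4047. KO libraries 12, 51, 161, 163 and 932 had 5124, 1603, 1488, 2154 and 3510 CPM. The 3 low KO libraries are those with high cortical and hippocampal neuron scores (5.49, 5.77 and 4.95), whereas KO 12 and KO 932, at 1.22 and 1.32, lay within the WT range of Scn4b. WT 92 had a score of 4.87 and a Scn4b level in the middle of its group. The log2 change was -0.52 ± 0.29 (adjusted p = 0.381) over all libraries, and 0.13 ± 0.26 (adjusted p = 0.836) without the 3 KO libraries and WT 92. Without KO 12 it was -0.86 (adjusted p = 0.0408). The KO effect on Scn4b did not differ detectably between the ages in STR (0.05 ± 0.32, adjusted p = 0.994).

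**Figure D3:**
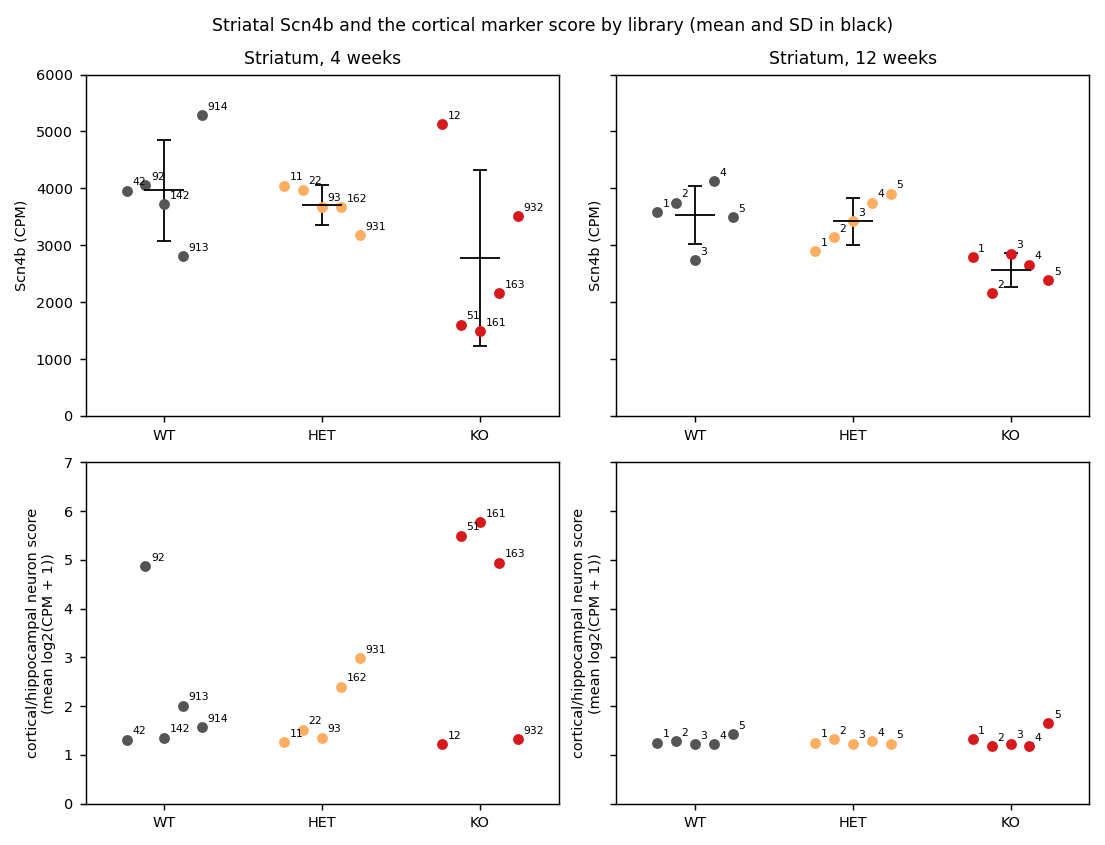
Striatal Scn4b in CPM (upper row) and the cortical and hippocampal excitatory neuron score, the mean log2(CPM + 1) of its 10 marker genes (lower row), per library at 4 weeks (left) and 12 weeks (right). Points are libraries with their label numbers, and black bars are mean and SD. At 4 weeks KO 51, 161 and 163 combine Scn4b of 1488 to 2154 CPM with scores of 4.95 to 5.77, and at 12 weeks all scores are low while the KO points lie between 2153 and 2849 CPM.

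Whether the KO effect in STR differed from the mean effect in the other 5 regions was tested directly. No member was called at either age, where 3.52% of all genes were called at 4 and 3.11% at 12 weeks; 1 of the 14 tests had an unadjusted p under 0.05 with edgeR, and DESeq2 called 0. That one was Scn4b at 12 weeks, with a difference of -0.59 ± 0.25 (adjusted p = 0.245). The fall of Scn4b is thus not shown to be particular to the striatum. Without the libraries that stood apart, Scn2b at 4 weeks gave a call of 0.63 (adjusted p = 0.0321), where it was 0.20 with them.

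Of the other KO tests, none was called, and 8 of the 84 had an unadjusted p under 0.05 with the Scn4b call included. Over all genes such p-values numbered from 479 of 16438 (HP at 12 weeks) to 2755 of 15425 (STR at 4 weeks) per comparison. In 3 tests the KO and WT ranges were separate. The share of all genes with separate ranges was not counted, so these separations are descriptions and are not read as changes. In PFC at 4 weeks Scn3a measured 51.5, 48.4, 49.3, 51.5 and 51.1 CPM in WT libraries (50.4 ± 1.44) and 63.3, 52.7, 61.9, 64.3 and 68.5 in KO libraries (62.1 ± 5.84). HET libraries, at 53.1 to 62.2 CPM (56.8 ± 3.07, n = 6), lay above every WT library as well. The KO change was 0.30 ± 0.06 on the log2 scale (adjusted p = 0.135) and the HET change 0.17 ± 0.06 (adjusted p = 0.847). The KO change was called by DESeq2 (adjusted p = 0.00988) and by edgeR without KO 44 (adjusted p = 0.00972). In SSC at 12 weeks Scn3b averaged 38.4 ± 2.75 CPM in KO and 46.6 ± 5.66 in WT (-0.28, adjusted p = 0.966), and Scn4b averaged 381 ± 19.3 in KO and 340 ± 21.1 in WT (0.16, adjusted p = 1.00). These 2 pairs of groups did not overlap either, yet their adjusted p-values are near 1.

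Scn8a in the 12-week striatum averaged 288 ± 14.7 CPM in KO and 339 ± 53.2 in WT, a log2 change of -0.23 ± 0.08 (adjusted p = 0.146). It was called only when WT 3, the WT library with low Scn4b, was left out (-0.30, adjusted p = 0.0177). Scn4b in PFC, where it is scarce, gave the second-largest KO difference by size: WT libraries 23, 92, 142, 913 and 914 had 45.5, 44.4, 35.6, 20.8 and 25.1 CPM at 4 weeks and KO libraries 12, 44, 51, 161 and 932 had 14.4, 41.6, 5.29, 17.3 and 11.1 CPM. The log2 change of -0.93 was not called, and KO 44 overlapped the WT range. KO 44 had an oligodendrocyte and myelin score of 6.95 and a fast-spiking interneuron score of 5.93, close to those of WT 23 (6.92 and 5.95), while KO 51, the lowest for Scn4b, had 5.00 and 5.12. The part of these in the difference was not tested. Over the 7 members the median absolute KO change in PFC at 4 weeks was 0.284, against 0.127 over all genes. It was the largest member median of the 12 comparisons. An unadjusted p under 0.05 was reached there by 3 of the 7 members and by 2415 of 15970 genes. The comparisons differed in this: the medians were 0.026 against 0.067 in SSC at 4 weeks, and 0.149 against 0.101 in STR at 12 weeks. In HP at 4 weeks Scn4b averaged 74.8 ± 18.1 CPM in KO and 53.9 ± 5.95 in WT (0.47 ± 0.17, adjusted p = 0.725). The striatal projection neuron score there had a median of 5.30 in KO (4.19 to 5.61) and 4.19 in WT (4.09 to 4.77), and the thalamic score one of 6.55 in KO and 5.37 in WT. Their part in the Scn4b values was not tested. The largest difference of all by size, Scn3b in TH at 4 weeks (-1.11 ± 0.77, adjusted p = 0.521) includes WT 913 at 200 CPM, where the KO libraries had 8.59 to 57.8 CPM, and without WT 913 it was -0.0046 ± 0.60. Scn2a, the alpha subunit with the most even KO values, differed from WT by -0.11 to 0.07 in the 12 comparisons, and none of its adjusted p-values was under 0.676.

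**Figure D4:**
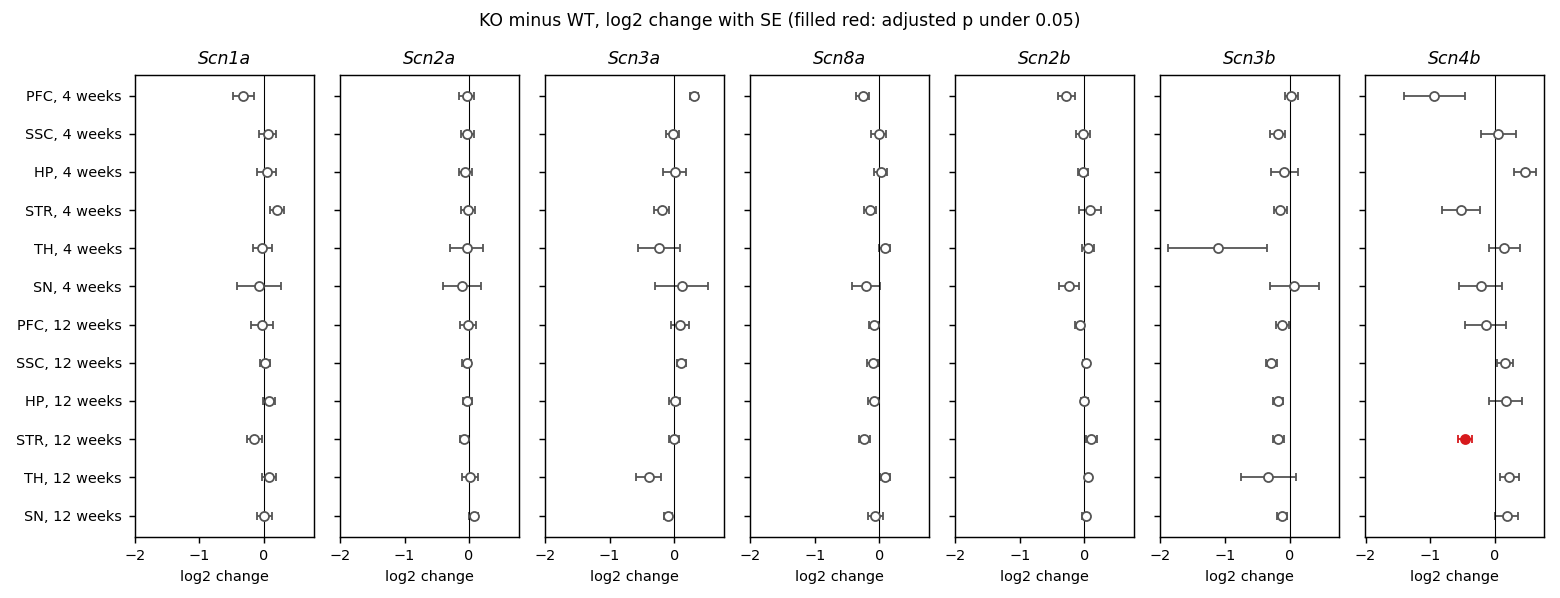
Log2 change of each subunit in KO against WT (point, with SE as bar) in 12 groups of region and age, with a filled red point where the adjusted p was under 0.05. The single red point is Scn4b in STR at 12 weeks, at -0.46, and the wide bar at -1.11 is Scn3b in TH at 4 weeks.

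In HET mice no member was called in 84 tests with edgeR, where 0.00521% of all genes were called over the 12 comparisons. In HP and SN at 4 weeks 0 genes were called, so Akap11 itself was not called in HET mice there. An unadjusted p under 0.05 was reached in 6 of the 84, and DESeq2 called 0. Over all genes such p-values numbered from 263 of 15893 (SSC at 12 weeks) to 2551 of 15654 (TH at 4 weeks) per comparison. The smallest adjusted p, 0.210, belonged to Scn2b in TH at 4 weeks, which averaged 564 ± 85.6 CPM in HET and 462 ± 30.3 in WT (0.29 ± 0.09). HET changes ranged from -0.69 to 0.59, both for Scn3b at 4 weeks, in TH and in SN. The SSC libraries HET 93 and HET 162 at 4 weeks had 605 and 393 CPM of Scn4b on the scale of that region and age. WT libraries there had 214 to 277 CPM on the scale over all libraries. The striatal projection neuron scores of HET 93 and HET 162 were 7.49 and 6.60. The KO effect did not differ detectably between 4 and 12 weeks for any member. In those 42 tests edgeR called 0 members, against 0.0% of all genes, 1 had an unadjusted p under 0.05, the smallest adjusted p was 0.643, and DESeq2 called 0.

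Comparing WT mice at 12 with those at 4 weeks, 10 of 42 tests were called, 9 lower and 1 higher, and over all genes 11.4% were called lower and 9.21% higher. The members' share of calls in both directions together was thus near that of all genes. Scn2b accounts for 5 of the 10 calls. In PFC it went from 404, 407, 414, 363 and 557 CPM at 4 weeks (libraries 23, 92, 142, 913 and 914) to 314, 294, 311, 342 and 318 at 12 weeks (libraries 1 to 5), so that every older library lay below every younger one. The log2 changes were -0.44 in PFC (adjusted p = 0.00435), -0.36 in SSC (adjusted p = 0.00131), -0.28 in TH (adjusted p = 0.00410) and -0.47 in SN (adjusted p = 0.00633), without overlap of the ages. In HP the change was -0.23 (adjusted p = 0.0177) with overlapping libraries, and in STR it was -0.25 ± 0.13 (adjusted p = 0.209). The share of all genes whose ages did not overlap was not counted, so a lack of overlap between ages is a description here and below. The calls in PFC, SSC, TH and SN were made under every alternative run, though the SSC change was -0.21 (adjusted p = 0.00608) without the 16-library subset. The HP call was lost in 4 of 17 alternatives: with only WT libraries in the fit, or without WT 3 or WT 4 at 12 weeks or WT 23 at 4 weeks.

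SSC had the most called members, 4 of 7, all lower, with 27.1% of all genes called there and 13.7% called lower. Scn3a there went from 34.6, 33.8, 30.0, 30.6 and 28.7 CPM at 4 weeks to 23.4, 22.6, 24.2, 22.4 and 22.4 at 12 weeks, with no overlap (-0.45, adjusted p = 0.000499). Scn2a went from 410 ± 45.0 to 325 ± 29.9 CPM (-0.33, adjusted p = 0.00818) and lost its call without the 16-library subset (-0.22, adjusted p = 0.0717). Scn3b went from 55.8 ± 3.98 to 45.7 ± 5.79 CPM (-0.28, adjusted p = 0.0486) and was lost in 11 of 17 alternatives. Scn4b went the other way in SSC, from 239 ± 27.8 to 334 ± 22.5 CPM without overlap, but this was not called over all libraries (0.49 ± 0.22, adjusted p = 0.107). It was called without the libraries that stood apart (adjusted p = 0.00165), and with only WT libraries (adjusted p = 0.00215).

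In PFC, where 19.1% of all genes were called (10.2% lower), the second called member besides Scn2b was Scn8a, at 437 ± 49.8 CPM at 4 and 363 ± 24.8 at 12 weeks (-0.26, adjusted p = 0.0341), lost in 9 of 16 alternatives. In HP and TH, with 17.7% and 22.6% of all genes called (10.6% and 12.6% lower), Scn2b was the only called member. In STR 18.5% of all genes were called (9.41% lower) and no member was. Scn8a in STR (-0.25, adjusted p = 0.0575) was called in 4 alternatives. In SN, with 18.6% called (11.8% lower), Scn3b was the only member called higher. It measured 129, 31.3, 39.7, 112, 108 and 140 CPM at 4 weeks (WT 23, 42, 92, 142, 913 and 914) and 155, 164, 174, 179 and 185.5 at 12 weeks, with no overlap (0.87, adjusted p = 0.0326). The 2 lowest young libraries, WT 42 and the library labelled WT 92, are those low for dopamine neuron markers. Without all that stood apart the change was 0.49 ± 0.17 (adjusted p = 0.0466), and the call was lost in 7 of 18 alternatives, among them without WT 42 (0.70, adjusted p = 0.0636) and without the library labelled WT 92 (0.72, adjusted p = 0.0619). Scn3a in SN, not called (0.84, adjusted p = 0.0565), went from 39.5, 22.2, 4.28, 41.2, 40.6 and 44.4 CPM to 51.5, 60.2, 56.0, 59.2 and 60.7, with WT 42 and the library labelled WT 92 again lowest. It was called without the libraries that stood apart (0.47, adjusted p = 0.00793).

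Other markers moved with age in the same libraries. Of 8 oligodendrocyte and myelin markers, all 8 were called lower at 12 weeks in SSC, HP, STR and SN, 7 in TH and 2 in PFC, with median log2 changes from -1.64 in SN to -0.80 in SSC. In SN, 5 of 8 dopamine neuron markers were called higher (median 1.82) and 6 of 10 thalamic markers lower (median -2.32). Of 7 pan-neuronal markers at most 2 were called lower in any region. The part of these shifts in the subunit changes was not tested. The ages hold differently numbered libraries, and the low-whole-number subset exists at 4 weeks alone, so age and any difference in how the 2 sets were handled cannot be told apart.

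**Figure D5:**
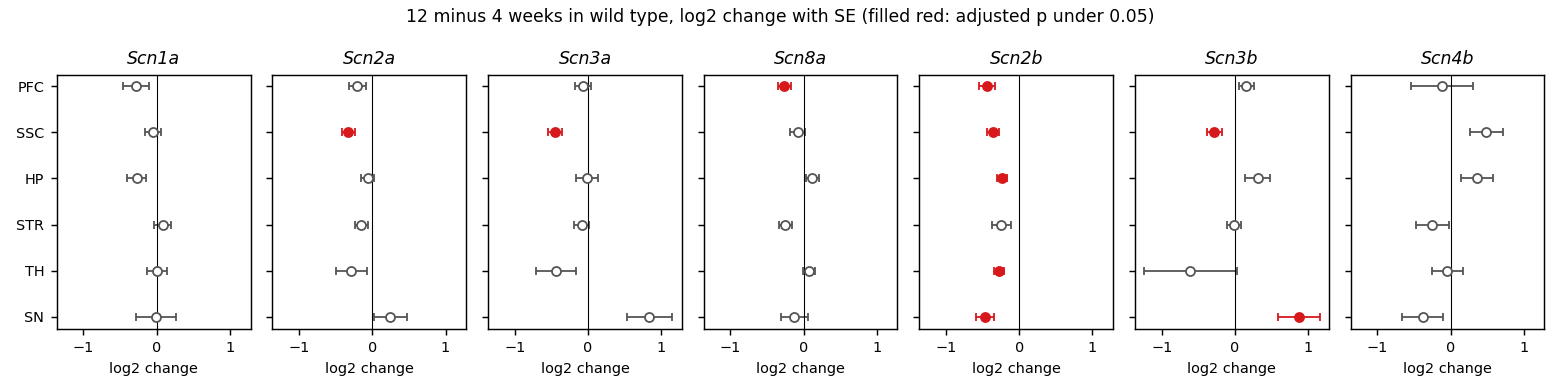
Log2 change of each subunit at 12 against 4 weeks in WT (point, with SE as bar) in 6 regions, with a filled red point where the adjusted p was under 0.05. Scn2b is below 0 in all 6 regions and red in 5, and Scn3b in SN, at 0.87, is the only red point above 0.

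The other genes of the system were taken as 2 fixed lists. The first holds sodium channel subunit genes outside the 7, among them Scn7a, Scn9a, Scn10a and Scn11a, and the second 15 genes of channel anchoring and partners, such as Ank3 (ankyrin-G), Sptbn4 (beta-IV spectrin), Nfasc (neurofascin), the contactins, the intracellular fibroblast growth factors Fgf11 to Fgf14 and the axonal potassium channel gene Kcnq3. In KO mice the 1 call in either list was Fgf12 in STR at 4 weeks (0.42 ± 0.11, adjusted p = 0.0413), a factor that binds the tail of the pore subunit, where 3.35% of all genes were called. In WT at 4 weeks Fgf12 averaged 188 CPM in SSC, 133 in PFC, 66.5 in HP and 64.4 in STR. Of the 5 KO striatal libraries, 3 are those with high cortical and hippocampal neuron scores. The part of cell make-up in the Fgf12 change was not tested. Without the libraries that stood apart the Fgf12 change was 0.31 ± 0.07 (adjusted p = 0.0403). It was not called in 15 of 23 alternatives, such as with that score as a covariate (adjusted p = 0.0949) or with only WT and KO in the fit (adjusted p = 0.152), and with single libraries left out the adjusted p ran from 0.0149 to 0.111. Nrcam, an adhesion protein of the initial segment, differed in KO effect between STR and the other 5 regions at 4 weeks (0.42 ± 0.13, adjusted p = 0.0372), where 3.52% of all genes were called. In WT at 4 weeks Nrcam averaged 552 CPM in PFC, 463 in SSC, 377 in HP and 282 in STR. The part of cell make-up in the Nrcam difference was not tested. The difference was 0.55 ± 0.14 without the libraries that stood apart (adjusted p = 0.0302), and it was not called in 9 of 15 alternatives, among them the fit with the replicate number as a block (adjusted p = 0.0557). In HET mice neither list had a call.

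With age, some of the anchoring genes were called lower in each region. Of the 15, 5 were called lower in PFC (10.2% of all genes), 7 in SSC (13.7%), 2 in HP (10.6%), 6 in STR (9.41%), 6 in TH (12.6%) and 3 in SN (11.8%), and 1 was called higher, Fgf13 in SN (0.84, adjusted p = 0.00998). The median log2 change of the list lay between -0.19 in STR and 0.00 in SN. Nfasc, which is made by both neurons and oligodendrocytes, was called lower in all 6 regions, by -0.56 in PFC, -0.52 in SSC, -0.85 in HP, -0.97 in STR, -0.69 in TH and -0.94 in SN. Its WT mean in SN went from 988 to 518 CPM. Sptbn4 was called lower in 5 regions (-0.61 in SN to -0.29 in TH). Among the subunit genes outside the 7, Scn9a was called higher in SN (1.59), where 18.6% of all genes were called. Its WT mean there went from 4.20 to 12.8 CPM. Scn10a was called higher in SSC (1.43), where 27.1% of all genes were called. Its WT mean there went from 0.077 to 0.218 CPM, so it was barely detected at either age.

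The partners also differed between regions. At 12 weeks 14 of the 15 anchoring genes were called in STR (67.3% of all genes), 9 higher and 5 lower, with a median of 0.43, and the largest changes there were Nedd4l, a ubiquitin ligase of sodium channels (1.39), Fgf11 (1.33), Fgf13 (-0.97) and Fgf12 (-0.90). In SN 12 of 15 were called (67.8% of all genes), led by Fgf11 (1.58) and Cntn2 (1.05) upward and Nedd4l (-1.68) and Kcnq3 (-1.43) downward. In TH Cntn2 (0.91) and Fgf12 (0.79) were higher and Fgf11 (-1.27) and Nedd4l (-0.68) lower. In SSC Fgf12 (0.97) and Fgf14 (0.74) were higher and Fgf11 (-0.38) and Nfasc (-0.28) lower. In HP Nedd4l (0.73) and Fgf13 (0.71) were higher and Fgf12 (-1.09) and Fgf14 (-0.61) lower. In PFC Nrcam (0.59) and Fgf12 (0.22) were higher and Cntn2 (-1.60) and Fgf11 (-1.06) lower. The share of all genes called in each of these comparisons is given with the members.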

How the data were processed

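Brain regions were cut from frozen tissue in a cryostat, and 200 ng of RNeasy-prepared RNA entered a stranded TruSeq mRNA library, per the labels' protocols. The authors deposited expected counts, which are estimates and can be fractional, in 1 table. The submitters' processing notes name Salmon and mm10. Neither the annotation nor the use of strand in counting is stated there or in the labels. No column was left without a sample (0).

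Expected counts were rounded and fitted with edgeR 4.0.16 in R 4.3.3 (TMM, filterByExpr, glmQLFit, glmQLFTest). KO and HET were compared with WT within each region and age, with the 3 genotypes in 1 fit. Ages were compared within each region, and regions in WT within each age. P-values were adjusted by Benjamini-Hochberg over all genes of a comparison, and adjusted p under 0.05 is a call. The SE is the log2 change divided by the square root of F. CPM is TMM-scaled within region and age for genotypes and over all libraries for regions and ages. Self-tests used simulated counts with 200 changed genes. No 2 replicates agreed within sampling noise (lowest chi-square per degree of freedom 7.97 over 390 pairs).

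Members and lists were chosen with earlier results of these data known. Named were the 7 members, Akap11, and per member the 3 genes of most similar pattern. From the 2 partner lists, up to 6 called genes per genotype comparison and up to 2 called changes in each direction per age or region comparison were named. Nfasc and Sptbn4 across regions and the other genes beyond this rule were chosen after their values were seen. A few list genes are not reported here. Alternatives were other size factors, no filter, DESeq2 1.42.0, fewer groups in a fit, 1 surrogate variable (sva 3.50.0), covariates, a replicate block and leaving out libraries. The removal of the 14 libraries that stood apart, and the subset covariate for age, were chosen after seeing the data.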

Additional observations from a re-analysis of the deposited data

Results flagged for a closer look

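In 252 groups of 5 or 6 libraries (7 genes in 36 groups), 1 library lay far from the others by Dixon's criterion in 16. Chance alone flags about 1 in 20. Values are CPM, with the range of the other libraries of the group after each.

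Above their groups were Scn1a in the SSC KO library 12 at 4 weeks (558.4, others 364 to 375) and in the HP WT library 5 at 12 weeks (114.9, others 86.6 to 93.3). Scn2a was high in the PFC HET library 941 at 4 weeks (615.3, others 437 to 478), and so was Scn2b (525.1, others 314 to 381). In the PFC WT library 914 at 4 weeks both Scn2b (551.9, others 357 to 411) and Scn3b (212.1, others 144 to 154) were high. Scn2b in the HP KO library 51 at 4 weeks stood at 463.8 (others 339 to 375). SSC KO 12, PFC HET 941, PFC WT 914 and HP KO 51 all belong to the 16-library subset with few whole-number values. The part of that subset in these values was not tested.

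In TH at 4 weeks the WT library 913 was high for Scn3a (51.98, others 13.2 to 20.6) and for Scn3b (200.3, others 4.41 to 41.3), and its cortical and hippocampal excitatory neuron score was 5.56. The SSC HET library 5 at 12 weeks had 545.4 of Scn4b (others 313 to 371) and a striatal projection neuron score of 6.51. Scn8a was high in the HP WT library 2 at 12 weeks (581.3, others 421.3 to 465.6).

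Below their groups were Scn2a in the SN library labelled WT 92 at 4 weeks (31.76, others 122 to 168), Scn3a in the PFC HET library 2 at 12 weeks (38.13, others 49.7 to 52.6) and Scn2b in the TH KO library 161 at 4 weeks (423.9, others 479 to 501). Scn8a was low in the HP HET library 4 at 12 weeks (399.2, others 427 to 437) and in the SN KO library 1 at 12 weeks (245.9, others 288 to 299).

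Scn3a moved in opposite directions with age in WT mice, by 0.84 in SN and -0.45 in SSC on the log2 scale, and in each region all libraries of one age lay on one side of those of the other. The difference between the regions was not tested. The SN change was not called (adjusted p = 0.0565).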

How the results depend on the processing

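Over the 92 member values called in at least 1 setting, 3030 alternative values were computed. Of these 2934 kept their side of the threshold, 57 lost and 39 gained a call, and 0 reversed. Reversal was counted only where the main or the alternative value was called. Uncalled values did change sign, as with Scn4b in KO against WT in the 4-week STR. That value went from -0.52 to 0.13 without the libraries that stood apart. Member calls in KO against WT numbered 1, with 2 under DESeq2 and 0 to 2 with 1 library left out. In HET and in the difference of KO effects between ages they numbered 0 under every setting, leaving out libraries included. With age they numbered 10, with 8 to 12 under other settings (9 to 11 with 1 library left out), and between regions 65, with 64 to 69 (63 to 67). With only WT libraries in the fit 7 of the 10 age calls were shared, and without the 16-library subset also 7. The KO effect in STR against the other 5 regions had 0 member calls, and 1 without the libraries that stood apart. The replicate block was run for the 12-week KO and HET comparisons, the region comparisons and the STR difference, not for age, and changed no member call there (KO 1, HET 0, regions 65, STR difference 0). Shared numbers were not treated as pairs: across genotypes at 12 weeks 64 of 90 same-numbered pairs had correlated deviations over 0.1 (median 0.219), and across WT regions 51 of 75 at 12 and 31 of 76 at 4 weeks. The labels do not say what a number stands for.

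Counts over all genes also moved between settings. In the 4-week STR the 516 KO calls became 970 under DESeq2, 174 with only WT and KO in the fit, and 263 to 1141 with 1 library left out, and in the 12-week STR 691 fell to as few as 428. The 619 calls for the STR difference at 4 weeks became 251 without the libraries that stood apart and as few as 168 with 1 left out. With only WT libraries the age calls went from 3132 to 679 in SN and from 3642 to 2227 in TH. DESeq2 moved the count by over 1.5 times in 11 of 12 KO, 9 of 12 HET and 6 of 6 age-by-KO comparisons. The median SE of a member's log2 change was 0.108 for KO, which limits how small a change could be called.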
